A study of Homo sapiens and Mus musculus with 4 samples.

Results

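TEAD transcription factors sit on DNA at short recognition elements and switch genes on when the co-activator YAP1 joins them. The Hippo kinase cascade normally keeps YAP1 out of the nucleus, and in muscle precursors active YAP1 favours division over differentiation. Embryonal rhabdomyosarcoma is a soft tissue tumour whose cells carry features of muscle precursors that have not matured.

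The peaks described here are all 47033 regions that the authors listed for the TEAD library of YAP-ERMS, mouse tumour cells, out of 69714 regions in the series. YAP-ERMS cells came from tumours driven by YAP and raised under Myf5-Cre or Pax7-CreER, Cre drivers active in the muscle lineage and in muscle stem cells. The labels do not say which of these drivers the profiled cells carried, how many animals or tumours they came from, whether they are a clone, or which TEAD protein the antibody recognised. The control was sequenced input chromatin of the same cells, so both sides share the YAP-driven tumour background. The other 22681 regions are from RD, a human rhabdomyosarcoma cell line, called against IgG. Each side of each comparison is 1 library, so no value below has a replicate error and no test was run. Library depth is unknown here, since the lists give no read counts, and intervals cover counting error only.

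Gene positions and sequence of mm9, the mouse genome build of this list, were not used here. Peaks are therefore described by position, and the genes beside them, including muscle, Hippo and oncogene loci, were not analysed here. The cell type of YAP-ERMS was not checked against marker loci for the same reason. Each peak's score is the authors' deposited value, read as 10 times the negative log10 of its p-value, and it ranks peaks within this list only. It reflects depth and control as well as enrichment.

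The top of the score scale was not smooth. Scores from 3000 to below 3100 were held by 21 peaks and those from 2900 to below 3000 by 22, while 97 peaks carried exactly 3100 and 22 lay above it. The closest scores on either side of the tied value were 3094 and 3100.21. The tied peaks had a median width of 2657 bp (range 1287 to 6301 bp), and the 22 above them had a median of 1726 bp. The tied peaks were thus wider than those listed above them. Whether 3100 is a measured score or a limit value that stands in for one could not be told from the list. It is printed below as the tied value, and no order of strength is read among these 119 peaks.

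The 20 peaks with the highest deposited scores, all above the tied value, lay on 12 chromosomes. Of these, 17 had no other peak scoring above 1000 within 50 kb, which is 85.0%. The share was 72.8% of all peaks and 64.1% of the 3466 peaks that themselves scored above 1000. Among the 97 tied peaks, 51 or 52.6% had none. The tied peaks thus more often had such a neighbour than all peaks or those above 1000 did. The 20 had one less often, but they are few peaks. The share with none was 81.8% for all 22 peaks above the tied value and 80% for ranks 11 to 20. No order of strength is read between the tied peaks and the 20. These shares are a description and were not tested. Of the 20, 1 had no other peak at all within 50 kb, measured between midpoints. The same held for 4177 of all 46948 peaks on the numbered chromosomes and X, and for 166 of the 3466 above 1000. The median of the 20 was 4 others, beside 3 for all 46948 peaks and 5 for those scoring above 1000. Ranks 11 to 20 by deposited score are described here. At rank 11, the peak on chromosome 14 at 47148331 to 47149725 scored 3154, and the best of its 4 neighbours within 50 kb scored 851. At rank 12, chromosome 15 at 54963390 to 54967498 held a peak 4109 bp wide with a score of 3147, and the best of 6 neighbours scored 1008. This peak was the widest of the 20. At rank 13, chromosome 12 at 31955390 to 31957089 scored 3142, and its 3 neighbours reached only 190. The next peak, on chromosome 15 at 92793435 to 92796595, scored 3136 with 5 neighbours of at most 680. Chromosome 2 at 131831309 to 131833285 followed with a score of 3134 and 2 neighbours of at most 849.

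At rank 16, chromosome 17 at 35949441 to 35951035 scored 3134 and had 8 neighbours, the most of these 10 peaks, of at most 788. Chromosome 6 at 43331371 to 43333121 scored 3130 with 7 neighbours, none above 296. A second peak on chromosome 14, at 48253522 to 48254816, scored 3129, and the best of its 4 neighbours scored 523. Chromosome 1 at 165621351 to 165622722 scored 3117 with 5 neighbours of at most 436. At rank 20, chromosome 10 at 15111134 to 15113192 scored 3109 and had 1 neighbour, which scored 1087 and lay 3.24 kb away. Rank 2 was the most crowded of the 20, a peak on chromosome 7 at 117845004 to 117846598 with 13 neighbours, none above 732.

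Densely bound regions were counted in fixed windows of 100 kb, by peak midpoint, over the span of each chromosome that its outermost peaks enclose. Of 25658 windows, 14987 held a YAP-ERMS peak, or 58.4%, and 10671 held none. A single peak was found in 4475 windows, and 307 windows held 10 or more. Those 307 windows held 3534 peaks, or 7.53% of the peaks on these chromosomes. Peaks were unevenly shared, since the 3585 fullest windows, 13.97% of all, held 50% of the peaks.

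The fullest window was on chromosome 3 at 107500001 to 107600000, with 25 peaks that covered 33.5% of its length. Their scores ran from 94.2 through a median of 217 to 1796, and 4 of them exceeded 1000. Its highest peak, at 107539931 to 107541543, lay 30.8 kb from the second, at 107508435 to 107511511, which scored 1457. Over all windows it held the most peaks and the greatest covered length, while no peak in it reached the scores of the first 119.

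Chromosome 9 at 102600001 to 102700000 came next, with 21 peaks scoring 95.1 to the tied value and a median of 391. It held 5 peaks above 1000, and its highest, at 102664265 to 102666825, carried the tied value of 3100. The second highest scored 1815 and lay 16.5 kb away. This window and that on chromosome 3 were thus near the top both by number of peaks and by number of peaks above 1000. The window on chromosome 5 at 151900001 to 152000000 held 20 peaks scoring 91.2 to the tied value of 3100, with a median of 334. Here 1 peak, at 151913984 to 151916736, stood alone above 1000, and the next scored 971 and lay 81.6 kb from it.

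After these, 4 windows tied at 17 peaks, and those on chromosome 6 came first by their highest score. That at 17400001 to 17500000 had scores of 82.0 to 2700 with a median of 391, and its leading peaks, at 17471530 to 17473850 and 17428587 to 17430079, scored 2700 and 2562. It lies in the fullest 1 Mb window of the genome, 17000001 to 18000000, which held 79 peaks beside a median of 18 over the 2350 windows of that size with a peak. That at 31000001 to 31100000 had scores of 80.3 to 2001 and a median of 458, the highest median of the 5 windows described so far. Its leading peaks, at 31030419 to 31034068 and 31037932 to 31040772, scored 2001 and 1994 with midpoints 7.11 kb apart. The other two with 17 peaks were the window 70000001 to 70100000 of chromosome 14, where scores reached 1601, and the window 10600001 to 10700000 of chromosome 15, where the median score was only 132. The peak-dense windows therefore ranged from groups led by a single strong peak to groups with several.

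**Figure D1:**
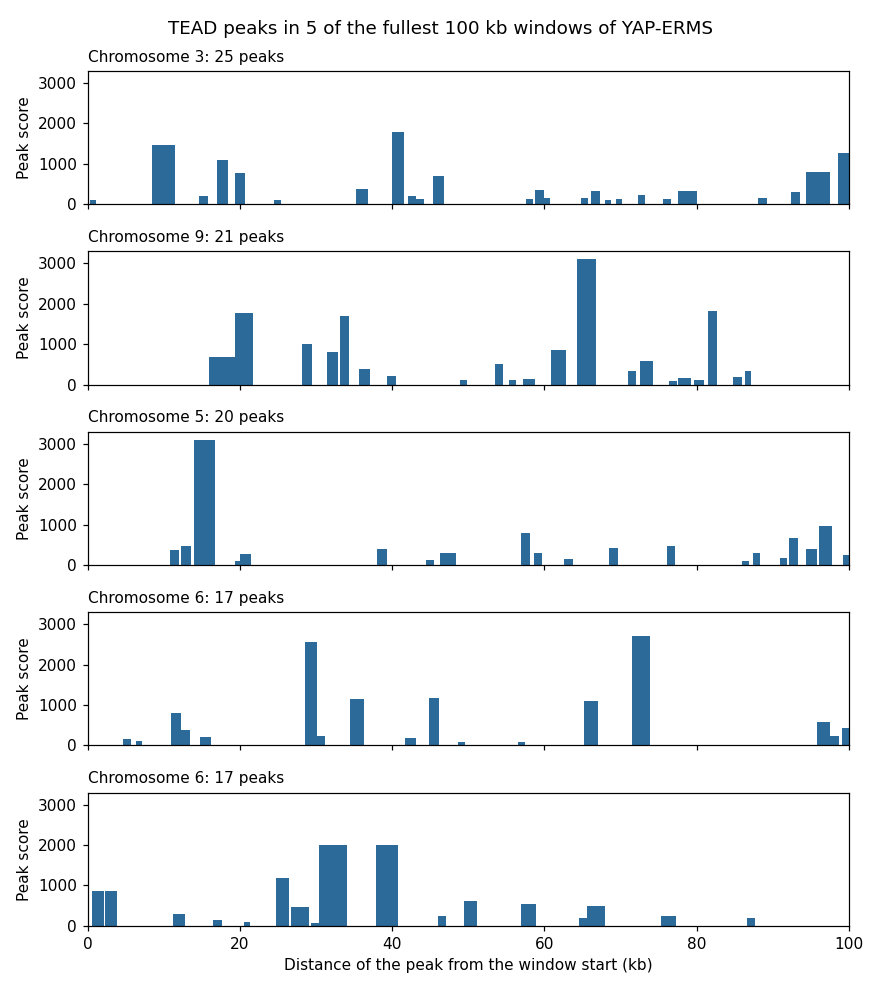
Score of each TEAD peak (y axis) against its distance from the window start in kb (x axis) in 5 of the fullest 100 kb windows of YAP-ERMS (the last 2 chosen by highest score from 4 tied at 17 peaks), where a bar is 1 peak and its width is the peak's width. The window on chromosome 3 holds 25 peaks and none above 1796, while that on chromosome 5 holds 1 peak at 3100 and no other above 1000.

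How many windows count as dense depended on the peaks and windows used. With peaks within 1 kb joined into 1, the chromosome 3 window was still the fullest, with 15 regions. At scores of 160 or more, the chromosome 5 window led with 16 peaks, and at 320 or more, the chromosome 9 window led with 13. With the grid moved by 50 kb, chromosome 3 led again, with 22 peaks at 107550001 to 107650000.

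Few windows held several strong peaks. Peaks scoring above 1000 were absent from 12186 of the 14987 windows with a peak, 2289 windows held 1 and 395 held 2. There were 87 windows with 3, 24 with 4 and 6 with 5, the most found. These 6 windows were chosen after their values were seen. Besides the windows on chromosome 9 and on chromosome 6 at 17400001, they included the stretch 13300001 to 13400000 of chromosome 2, which held 10 peaks with a median score of 1040 and a highest of 2795. The stretch 93300001 to 93400000 of chromosome 3 held 10 peaks with a median of 861 and a highest of 1555. Chromosome 15 contributed the windows 64300001 to 64400000, with 14 peaks and a median of 335, and 58900001 to 59000000, with 11 peaks and a median of 351. On chromosomes 2 and 3 the strong peaks were thus 5 of 10 in a window, and on chromosome 15 they were 5 of 14 and 5 of 11.

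Peaks in crowded regions had higher median scores. The median score was 163 (quartiles 108 and 302) for the 4177 peaks with no other within 50 kb, 179 for the 6028 with 1 other and 194 for the 13313 with 2 to 3. It was 220 for the 14557 peaks with 4 to 6 others and 249 (135 to 538) for the 8873 with 7 or more. The share above 1000 went from 3.97% (Wilson 95% interval 3.42% to 4.61%) with no other peak to 11.2% (10.6% to 11.9%) with 7 or more. The quartile ranges of these groups overlapped. Peaks of 1 library are not independent replicates, so the intervals are too narrow. In RD, whose scores and genome differ, the median went from 172 with no other peak to 224 with 7 or more.

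**Figure D2:**
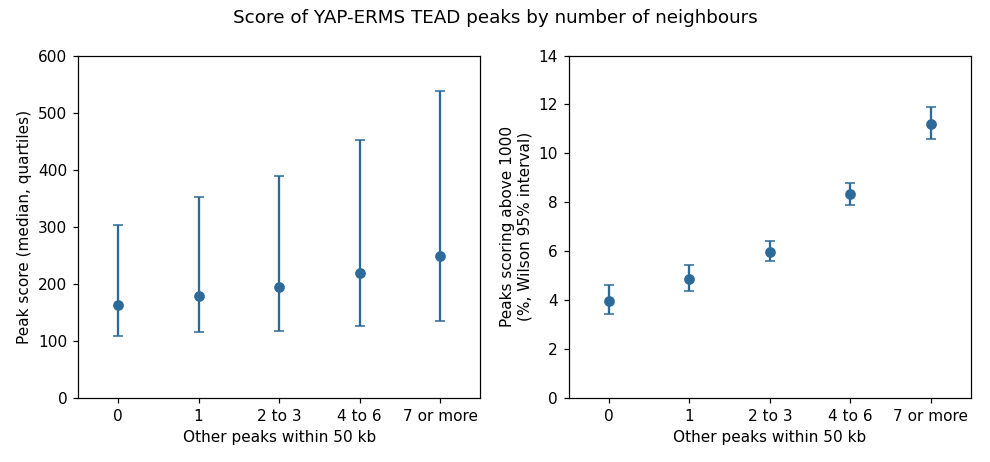
YAP-ERMS TEAD peaks grouped by the number of other peaks within 50 kb (x axis): on the left the median score with its quartiles, on the right the share of peaks scoring above 1000 in percent with Wilson 95% intervals. The median goes from 163 to 249 and the share from 3.97% to 11.2%.

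Scores of adjacent peaks were hardly related. Across 6342 pairs of adjacent peaks under 2 kb apart, Spearman's rho between the scores was 0.05. It was 0.03 for the 5555 pairs at 2 to 5 kb and 0.01 for the 8870 pairs at 50 to 200 kb. These correlations are across peaks of the same library, are a description and carry no test.

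Chromosome 15 held the largest share of strong peaks. Of its 2783 peaks, 304 or 10.9% (Wilson 95% interval 9.82% to 12.1%) scored above 1000, and 14 scored 3100 or more, as many as on chromosome 1, which has 3450 peaks. Chromosome 16 followed with 8.95% (7.82% to 10.2%), whose interval overlaps that of chromosome 15. The median autosome had 7.27% and the lowest, chromosome 14, 5.97% (4.96% to 7.16%). On X the share was 4.42% (3.26% to 5.96%) of 905 peaks, its highest score was 2505 and no peak reached 3100. A peak was found in 71.6% of the windows of chromosome 15, in 71.6% of those of chromosome 10 and in 27.2% of those of X. As above, the intervals are too narrow, since peaks of 1 library are not independent replicates. The copy number of the chromosomes in these cells was not analysed here, and differences between chromosomes were not tested.

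Large regions held no peak at all. Between neighbouring peaks there were 31 stretches of 3 Mb or more without a peak, 6 of them on X, and they summed to 137.5 Mb. The longest was on X, at 109369866 to 120725699, and measured 11.4 Mb. The longest on an autosome was on chromosome 7 at 39058495 to 46807342, 7.75 Mb long. The 1 Mb before it held 26 peaks with a highest score of 1837, and the 1 Mb after it held 8 with a highest score of 391. The border before it therefore ran from a well-occupied region to an empty one, while the region after it held fewer peaks.

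A second stretch on chromosome 7, at 7124760 to 13096067, was 5.97 Mb long and had 13 and 11 peaks in the 1 Mb on either side. Another lay at 20542314 to 24918723 and was 4.38 Mb long. Chromosome 7 thus had both the longest autosomal empty stretch and, at 117000001 to 118000000, a 1 Mb window with 73 peaks. Other empty stretches were 4.80 Mb on chromosome 1 at 25074984 to 29875638, 4.80 Mb on chromosome 14 at 109373951 to 114174441 and 4.64 Mb on chromosome 15 at 13111571 to 17749204. Chromosome 2 had stretches of 4.46 Mb at 85862129 to 90326054 and 4.42 Mb at 39227711 to 43652361. The stretch on chromosome 15 shows that the chromosome with the most strong peaks also held a long empty region. On chromosome 19 no empty stretch exceeded 1.58 Mb, the shortest maximum of any chromosome. Assembly gaps and the share of each stretch to which reads can be mapped were not analysed here, so an empty stretch is one without a listed peak and not one shown to lack TEAD.

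**Figure D3:**
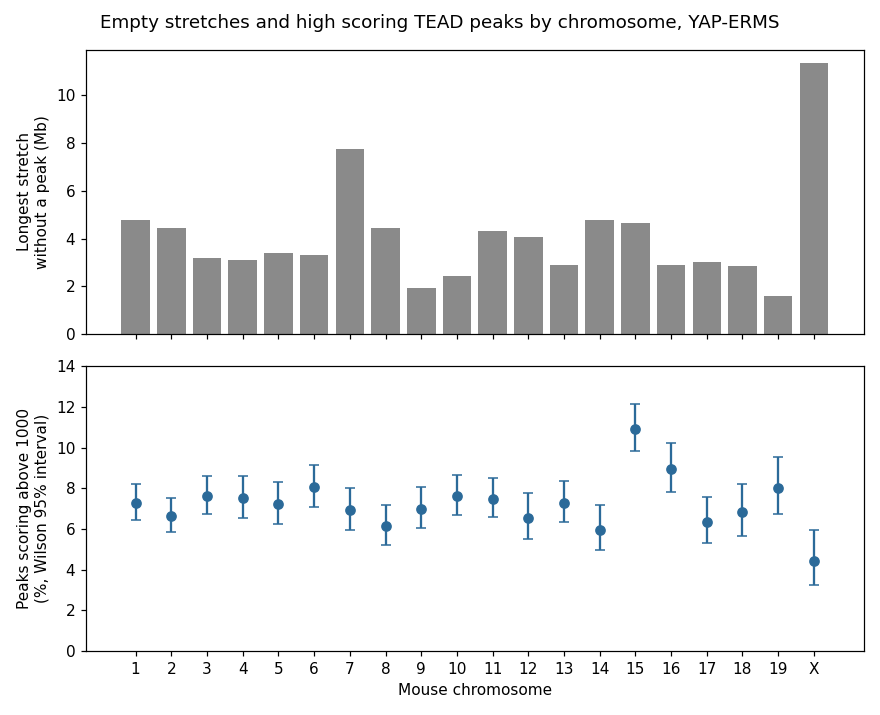
For each mouse chromosome (x axis), the longest stretch without a YAP-ERMS TEAD peak in Mb (top) and the share of its peaks scoring above 1000 in percent with Wilson 95% intervals (bottom). X has the longest stretch, 11.4 Mb, and the lowest share, 4.42%, and chromosome 15 has the highest share, 10.9%.

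In RD, 10435 of 29345 windows held a peak, or 35.6%, and the fullest held 16. There were 80 RD windows with 10 or more peaks, and they contained 3.98% of the RD peaks, beside 307 windows and 7.53% in YAP-ERMS. The lists differ in species, control and number of peaks, and possibly in depth, so these values stand side by side and the difference was not tested.

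**Figure D4:**
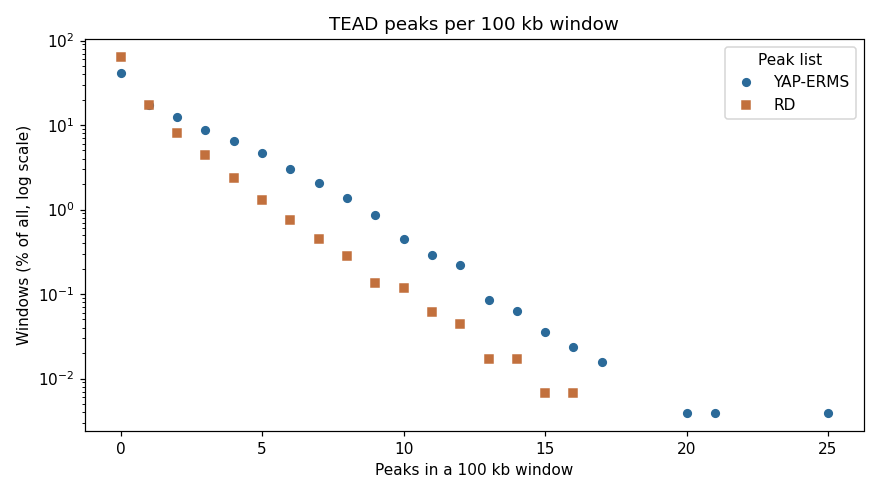
Share of all 100 kb windows, in percent on a log scale (y axis), by the number of TEAD peaks they hold (x axis), for YAP-ERMS (circles) and RD (squares). YAP-ERMS windows reach 25 peaks and RD windows 16, and windows without a peak are the most common in both lists.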

How the data were processed

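TEAD ChIP and input DNA of YAP-ERMS cells were sequenced, with 1 library each, after formaldehyde fixation and sonication, per the labels' protocols. Reads were aligned with Bowtie2, and the builds were mm9 for mouse and hg19 for human, per the submitters' processing notes. The authors deposited 1 list of peaks, with positions and a score, for each cell type. The peak names are those MACS writes. The MACS version, read filters and duplicate handling were not stated. The lowest deposited score is 80, which on the scale assumed here is the p-value limit of 1e-08 that the list's name gives.

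Positions are 1-based. Windows of 100 kb, peak-free stretches and neighbours within 50 kb were found with pandas 2.3.3 and numpy 2.4.6, correlations and intervals with scipy 1.17.1, in Python 3.11.15. The functions were tested on simulated data with a planted dense window and empty stretch. Peaks on Y, random and unplaced sequences, 85 in YAP-ERMS, were left out of the windows. Figures used matplotlib 3.10.9. The named peaks, without an annotation, were ranks 11 to 20 by score and the 5 fullest windows, with ties ordered by highest score. Other named regions were chosen after their values were seen. Members and rules were chosen with earlier results of these data known. The planned gene loci, gene lists, start sites and motifs need mm9 annotation or sequence, which were not used here.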

Additional observations from a re-analysis of the deposited data

How the results depend on the processing

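The alternatives that need gene positions or sequence were not run. The fullest window held 25 peaks. On chromosome 3 again, the fullest window held 14 with 50 kb windows and 15 with peaks within 1 kb joined. There it also held 31 with 200 kb windows and 22 with the grid moved by 50 kb. At scores of 160 or more the fullest was the chromosome 5 window, with 16. At scores of 320 or more it was the chromosome 9 window, with 13. Smaller windows or fewer peaks lower the highest number by construction. Windows with 10 or more peaks numbered 307, against 51 at scores of 160 or more, 6 at 320 or more, 121 with close peaks joined, 25 with 50 kb windows, 1238 with 200 kb windows and 316 with the grid moved. The share of windows with a peak was 58.4%, 43.3% with 50 kb windows, 71.1% with 200 kb windows, 46.6% when scores below 160 were left out and 33.6% when those below 320 were. The longest autosomal empty stretch stayed between 7.75 and 8.996 Mb, and stretches of 3 Mb or more went from 31 to 50 with the limit of 160 and to 69 with that of 320. The median score with 7 or more neighbours was 1.52 times that with none, 1.61 times with close peaks joined, 1.36 times with the limit of 160 and 1.16 times with that of 320. The 320 limit, the moved grid, neighbours within 25 kb (1.58 times) and leaving out the 97 tied peaks (1.51 times) were added after the data were seen. No paired analysis was possible because each group is 1 library. The depth of the libraries is unknown, so neither an empty stretch nor a low score can be set against what the depth could detect.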
